A study of Rattus norvegicus with 4 samples.

Results

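The genes of the BCL2 family, the caspases and the inhibitors of apoptosis (IAPs) were examined in neonatal rat cardiomyocytes that overexpressed atrogin-1. Members were taken from the gene table of the array by symbol: every gene named Bcl2, Casp or Birc with its number or suffix, and a fixed set of partners such as Bax, Bak1, Bid, the BNIP genes, Xiap, Apaf1 and Cflar. The table held 44 such genes on 64 probe sets. Of these, 42 genes had at least 1 probe set of their own (61 probe sets), out of 14217 genes and 31042 probe sets in all. Bax and Cycs were present only on probe sets shared with other loci and are described apart, and Pmaip1, another gene of the rule, was not analysed here.

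Apoptosis is carried out by caspases, proteases that lie inactive in the cell until they are cleaved. In the mitochondrial route, BH3-only proteins sense damage and lift the block that prosurvival BCL2 proteins hold on BAX and BAK. These effectors, and BOK, open the outer mitochondrial membrane. Cytochrome c then joins APAF1 to build the apoptosome, which activates caspase-9, whereas death receptors activate caspase-8 through the adaptor FADD. The IAPs bind caspases or tag signaling proteins with ubiquitin, and DIABLO and HTRA2 from mitochondria release that brake. Heart muscle cells live long and divide rarely, and the loss of cardiomyocytes by this program is a known feature of heart failure.

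The cells were ventricular cardiomyocytes of Sprague-Dawley rats aged 1 to 2 days, plated in serum and then held in serum-free DMEM/F12 for 24 hours after infection. In the control group (Ad-GFP) the adenovirus carried green fluorescent protein, and in the other group (Ad-atrogin-1) it carried atrogin-1, a muscle ubiquitin ligase encoded by Fbxo32, with the same GFP marker. There was no uninfected group, so the response to the virus and to GFP was common to both. Each group had 2 Affymetrix rat genome arrays, which the labels call biological replicates. The methods speak of 3 independent experiments without saying which gave each array.

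The values are log2 signals made by robust multi-array average, and a difference of 1 on this scale is 2-fold. Array medians lay between 5.51 and 5.52 and lower quartiles between 3.88 and 3.94. Fbxo32 had log2 signals of 5.24 and 5.04 on the Ad-GFP arrays and 13.55 and 13.47 on the Ad-atrogin-1 arrays, which was 331-fold higher (limma adjusted p = 3.51e-05). That signal did not separate viral from cellular RNA. Of the 9 cardiomyocyte markers measured, all were above the lower quartile on every array, and the mean log2 signal of the list was 11.39 and 11.65 on the Ad-GFP arrays and 12.03 and 11.58 on the Ad-atrogin-1 arrays. The list means of the fibroblast markers were also high, from 9.54 to 9.97, and so were those of smooth muscle (8.36 to 8.80). Single markers of these lists varied, with Thy1 at 5.34 to 5.78 and Dcn at 11.02 to 11.66. Myh11 lay at 6.46 to 6.83 and Acta2 at 10.82 to 11.36. The means of the endothelial list lay between 5.56 and 6.20 and those of the leukocyte and erythroid lists between 5.00 and 5.59. No marker was called. In cultured tissue fewer cells of a type and less RNA per cell cannot be told apart, and so it was for every difference given here.

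None of the 42 member genes passed limma, for which a gene needed a difference of 2-fold or more with an adjusted p under 0.05 (0 called), where 73 of all genes were called, a share of 0.513%. The smallest adjusted p among the members was 0.154, that of Apaf1, the scaffold of the apoptosome. At an unadjusted limma p under 0.05, 4 members were higher (Bnip1, Birc5, Casp4 and Bmf), beside 6.83% of all genes, and 4 were lower (Apaf1, Bcl2l1, Bid and Fadd), beside 6.52% of all genes. The 2 lists of 4 held death-promoting and death-blocking genes alike. With 2 arrays against 2, an exact permutation test of a single gene cannot give a two-sided p under 0.3333, so only the fit across all probe sets was used.

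Differences of the members ran from -0.55 for Apaf1 to 0.88 for Casp4 on the log2 scale. The median was -0.07, beside -0.0028 over all genes, and 24 of 42 members (57.1%) were below 0, beside 50.7% of all genes. Both Ad-atrogin-1 arrays lay above both Ad-GFP arrays in 8 members (19.0%), beside 20.7% of all genes, and below them in 13 members (31.0%), beside 22.3% of all genes. The groups overlapped in the other 21 members. The first share was thus near that of all genes and the second was higher, by a difference that was not tested.

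**Figure D1:**
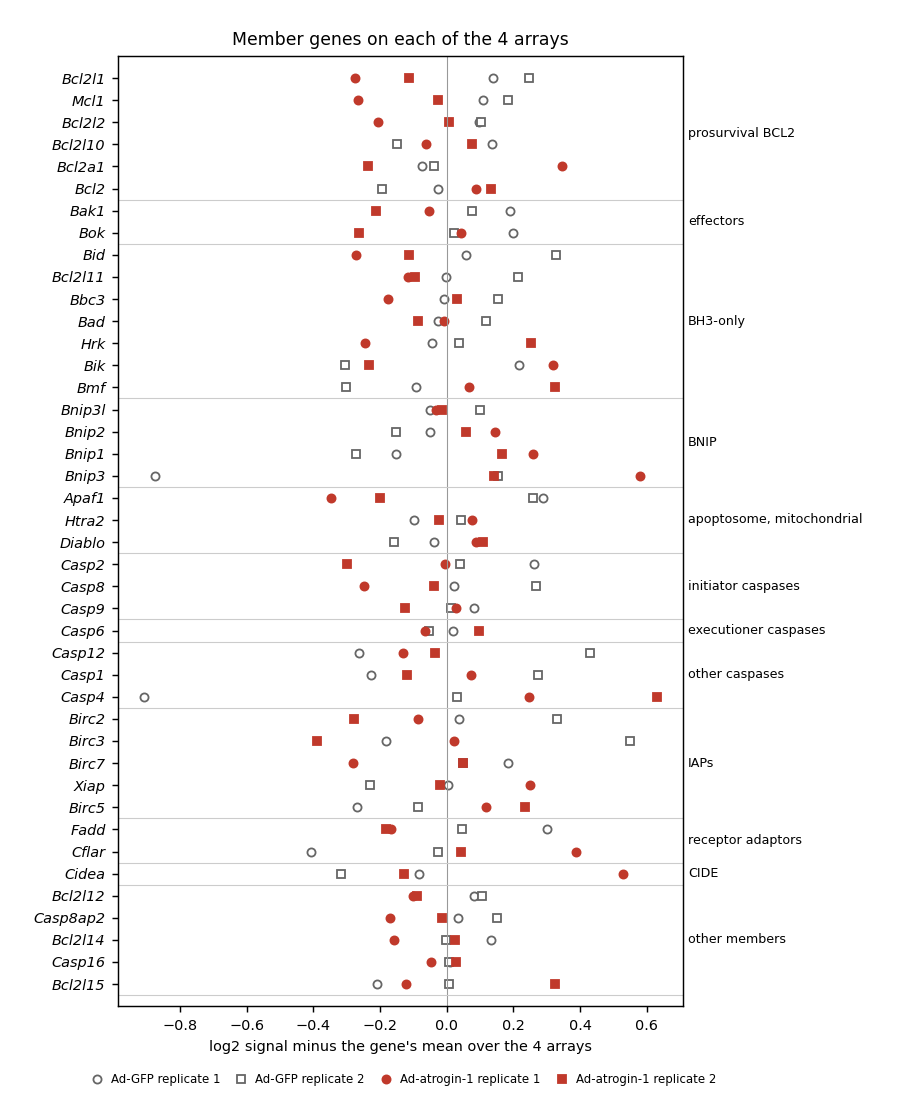
Log2 signal of each of the 42 member genes on the 4 arrays at its brightest probe set, drawn as the distance from the gene's own mean over the 4 arrays (x axis, log2 units) and grouped by role. Open marks are the Ad-GFP arrays and filled marks the Ad-atrogin-1 arrays. In 21 members the open and filled marks overlap, and the open circles of Bnip3 and Casp4 lie far to the left of their other 3 marks.

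The arrays also set bounds on how large a difference in signal could be. For members with a signal near the lower quartile (Casp16, Bcl2l10 and Bcl2l15) such bounds say little of the RNA. For 39 of the 42 members the 95% interval of the limma fit lay within 2-fold in both directions, as it did for 92.6% of all genes. The exceptions were Casp4, Bnip3 and Birc3. Only Casp4 and Bnip3 differed by 1.5-fold or more, beside 5.55% of all genes, and none differed by 2-fold.

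**Figure D2:**
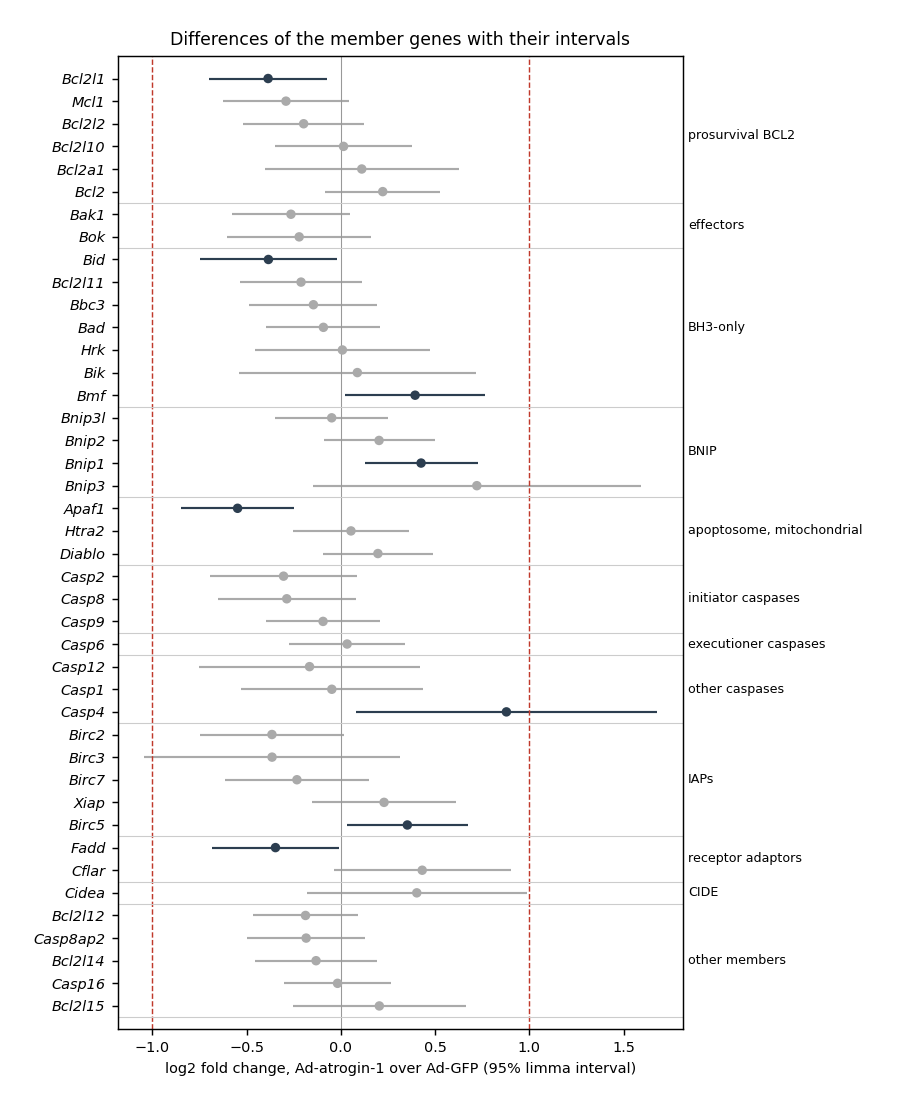
Log2 fold change of Ad-atrogin-1 over Ad-GFP (x axis) for each of the 42 members, with the 95% interval of the limma fit as a bar. Dashed lines mark 2-fold in either direction, and dark marks are the 8 members with an unadjusted p under 0.05. The bars of Casp4 and Bnip3 cross the upper dashed line and that of Birc3 the lower one.

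Among the prosurvival BCL2 genes, which keep the mitochondrial membrane closed, 3 of 6 had both Ad-atrogin-1 arrays below both Ad-GFP arrays. The share over all genes was 22.3%. In 1 of the 6 both were above, beside 20.7% of all genes, and none passed the test. The list median was -0.09. Bcl2l1, which encodes the prosurvival protein BCL-XL, had log2 signals of 8.62 and 8.73 on the Ad-GFP arrays and 8.20 and 8.37 on the Ad-atrogin-1 arrays. The groups did not overlap, and the mean was 1.31-fold lower with Ad-atrogin-1 (log2 difference -0.39, SE 0.13, 95% interval -0.70 to -0.07, limma adjusted p = 0.283). The other probe sets of Bcl2l1 differed by -0.32, without overlap, and by -0.22 on a dim probe set with signals of 3.65 to 3.90, under the lower quartile of every array.

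Mcl1, which encodes a short-lived prosurvival protein that heart muscle needs, had 10.59 and 10.66 on the Ad-GFP arrays and 10.22 and 10.45 on the Ad-atrogin-1 arrays. Both Ad-atrogin-1 arrays were lower, by 0.29 in the mean (log2 difference -0.29, SE 0.13, limma adjusted p = 0.439), and on the second probe set of Mcl1 (-0.22) the groups overlapped. Bcl2l2 (BCL-W) was lower on both arrays (-0.20, SE 0.13). Bcl2, the founding gene of the family, was the only gene of the list above both controls on each Ad-atrogin-1 array (0.22, SE 0.12). The Bcl2 signals, 4.69 and 4.52 with Ad-GFP and 4.81 and 4.85 with Ad-atrogin-1, all lay below the array medians. Bcl2a1, a prosurvival gene best known from leukocytes, differed by 0.11 and Bcl2l10 by 0.01. The Bcl2a1 signals were 5.52 and 5.56 with Ad-GFP and 5.94 and 5.36 with Ad-atrogin-1, so that its highest and lowest values were both in the Ad-atrogin-1 group. The mean of the 8 leukocyte markers was likewise highest in Ad-atrogin-1 replicate 1 (5.59) and lowest in replicate 2 (5.00). Of the single markers, only Cd14 (7.40 and 5.58 on these arrays) and Cd68 (6.62 and 5.08) were so, and the others were not. The part of these levels in the Bcl2a1 values was not tested.

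Of the effectors that form the membrane pore, the 2 with a probe set of their own were slightly lower and neither passed the test. Bak1 had 8.46 and 8.35 on the Ad-GFP arrays and 8.22 and 8.06 on the Ad-atrogin-1 arrays, a log2 difference of -0.27 (SE 0.13) without overlap of the groups. Bok had 9.05 and 8.88 against 8.90 and 8.59, a difference of -0.22 (SE 0.15) with overlapping groups. The probe set of Bax is shared with the locus LOC681314 and gave 9.35 and 9.06 with Ad-GFP and 9.23 and 9.55 with Ad-atrogin-1. It was higher in mean (0.19, SE 0.17), and the groups also overlapped.

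The BH3-only genes, whose products start the mitochondrial route, went in both directions: 3 of 7 were higher and 4 lower in mean, with a median of -0.09, and none passed the test. Bid, which caspase-8 cleaves to link death receptors to mitochondria, had 8.11 and 8.38 on the Ad-GFP arrays and 7.78 and 7.94 on the Ad-atrogin-1 arrays. The groups did not overlap, and the difference was -0.38 (SE 0.15, 95% interval -0.75 to -0.02, limma adjusted p = 0.349). Its second probe set had 7.06 and 7.28 against 6.42 and 6.76, a difference of -0.58 (SE 0.16, adjusted p = 0.290 over all probe sets in limma), so that both probe sets separated the groups.

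Bmf, which senses loss of attachment and changes of the cytoskeleton, was the only BH3-only gene higher than both controls on each Ad-atrogin-1 array. Its signals were 4.35 and 4.15 with Ad-GFP and 4.52 and 4.77 with Ad-atrogin-1, a difference of 0.39 (SE 0.15, adjusted p = 0.349 in limma). These signals all lay below the array medians. Bbc3, the p53 target PUMA, had 8.53 and 8.70 against 8.37 and 8.57, which overlapped (-0.15, SE 0.14). Bcl2l11 (BIM) differed by -0.21 at its brightest probe set, without overlap, and by 0.04 and 0.10 on its other probe sets, with overlap. Those were dimmer, with signals of 5.52 to 5.94 and of 4.14 to 4.45. Bad (-0.09), Hrk (0.01) and Bik (0.09) had overlapping groups.

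The 4 BNIP genes encode proteins that bind BCL2 family members, and Bnip3 and Bnip3l are also receptors that mark mitochondria for autophagy. Their median difference was 0.31 and 3 of 4 were higher in mean, yet none passed the test. Promoters are shown for Bnip1 and Bnip3, the members of this list with the largest differences, and for Apaf1, the member with the smallest p. They are the 250 bases before the annotated start in RefSeq (rat build GRCr8, each on the minus strand), written 5′ to 3′. Capitals mark the letters ACGTG (core of the hypoxia response element), CCACG (distal arm of the ER stress element) or TGACG (core of the cyclic AMP response element), read on both strands and joined where they overlap.
Apaf1, chr7:27466773-27467022: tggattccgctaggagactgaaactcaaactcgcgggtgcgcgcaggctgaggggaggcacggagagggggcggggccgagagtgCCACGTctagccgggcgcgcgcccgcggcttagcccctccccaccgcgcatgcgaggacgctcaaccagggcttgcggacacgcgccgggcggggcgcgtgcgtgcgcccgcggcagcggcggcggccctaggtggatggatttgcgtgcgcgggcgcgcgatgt
Bnip1, chr10:16903562-16903811: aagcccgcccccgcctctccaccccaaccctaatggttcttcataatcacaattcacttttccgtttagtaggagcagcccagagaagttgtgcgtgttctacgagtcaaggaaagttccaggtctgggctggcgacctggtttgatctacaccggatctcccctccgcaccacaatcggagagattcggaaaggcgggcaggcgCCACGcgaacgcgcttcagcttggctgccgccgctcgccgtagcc
Bnip3, chr1:203154963-203155212: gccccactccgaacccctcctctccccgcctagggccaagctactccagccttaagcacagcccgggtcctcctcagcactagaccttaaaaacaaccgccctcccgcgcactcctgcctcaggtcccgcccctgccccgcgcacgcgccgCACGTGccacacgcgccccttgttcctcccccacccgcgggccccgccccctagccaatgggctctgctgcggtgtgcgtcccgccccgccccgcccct
In Bnip3 the marked letters read the same on both strands and hold ACGTG on each. In Apaf1 CCACG overlaps ACGTG of the opposite strand, and Bnip1 held CCACG alone. Over all 33469 promoters of the reference, cut to the same length, 16.6% held ACGTG, 27.2% CCACG and 18.2% TGACG. Of the 42 members, 31 had a promoter there, counted once per gene, and 7, 14 and 6 of these did. The reference promoters were not reduced in this way, and the shares were not tested against each other. These letters describe the windows and were not tied to any factor here.

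Bnip1, which encodes a protein of transport between ER and Golgi, had the smallest p among the members that were higher. Its log2 signals were 7.93 and 7.81 with Ad-GFP and 8.34 and 8.25 with Ad-atrogin-1. The replicates lay close together and the groups were apart, with a difference of 0.43 or 1.34-fold (SE 0.12, 95% interval 0.13 to 0.72, limma adjusted p = 0.237). A second, dim probe set of Bnip1 with signals between 3.12 and 3.47 differed by 0.01.

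Bnip3, a mitochondrial protein known to be induced by hypoxia in heart muscle, had 8.54 and 9.57 on the Ad-GFP arrays and 9.99 and 9.55 on the Ad-atrogin-1 arrays. The second control array was as high as the second Ad-atrogin-1 array, and the first control array stood 1.03 below it, a gap between replicates that 71 of all genes (0.499%) reached. The mean was 1.65-fold higher with Ad-atrogin-1 (log2 difference 0.72, SE 0.35, 95% interval -0.15 to 1.59, limma adjusted p = 0.461). Without Ad-GFP replicate 1 the difference was 0.21, and without Ad-GFP replicate 2 it was 1.23.

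Some cardiomyocyte markers ranked the arrays as Bnip3 did. Of the 9 measured, 5 were lowest on Ad-GFP replicate 1 and highest on Ad-atrogin-1 replicate 1, like Bnip3, and 2 of these (Myh6 and Ryr2) had the same order of all 4 arrays. Myh6, the heavy chain of heart myosin, had 10.01 and 11.09 with Ad-GFP and 11.84 and 10.89 with Ad-atrogin-1. The median difference of the 9 markers was 0.38, with 6 higher and 3 lower. Ad-GFP replicate 1 was also lowest and Ad-atrogin-1 replicate 1 highest in the mean of the list. The fibroblast (9.54), smooth muscle (8.36) and erythroid (5.02) means were lowest on Ad-GFP replicate 1 too, but the endothelial and leukocyte means were not. The part of these levels in the Bnip3 difference was not tested. Bnip3l (NIX), the close relative of Bnip3, did not share this order, with 9.10 and 9.25 against 9.12 and 9.14 and a difference of -0.05 (SE 0.12). Bnip2 was higher on both arrays by 0.20 (SE 0.12). Cidea, a protein of lipid droplets named for its likeness to a DNA fragmentation factor, had 9.31 and 9.08 with Ad-GFP and 9.92 and 9.27 with Ad-atrogin-1, and the difference of 0.40 (SE 0.24) was 0.07 without Ad-atrogin-1 replicate 1.

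Apaf1 was the clearest difference among the genes that act after the membrane opens. Its log2 signals were 7.01 and 6.98 with Ad-GFP and 6.38 and 6.52 with Ad-atrogin-1. The 2 control arrays were nearly equal and both Ad-atrogin-1 arrays lay below them, 1.46-fold in the mean (log2 difference -0.55, SE 0.12, 95% interval -0.85 to -0.25). The limma adjusted p of 0.154 did not pass, and leaving out single arrays gave differences from -0.62 to -0.48. On the second, dimmer probe set of Apaf1 the values were 5.94 and 5.84 against 5.46 and 5.85, a difference of -0.23 in which the groups overlapped.

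Among the factors that mitochondria release, none passed the test. Diablo (SMAC), which displaces IAPs from caspases, had 8.59 and 8.46 with Ad-GFP and 8.71 and 8.73 with Ad-atrogin-1, a difference of 0.20 (SE 0.12) without overlap. Htra2, a protease that also binds IAPs, had 8.37 and 8.51 against 8.55 and 8.45, which overlapped (0.05, SE 0.12). Both probe sets of Cycs, cytochrome c, are shared with Cycs-ps9 and Cycsl1, and they gave 11.54 and 11.59 against 11.82 and 11.62 on the first and 11.25 and 11.34 against 11.60 and 11.30 on the second.

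All 3 initiator caspases, which start the cascade, were lower in mean, with a median of -0.29, and none passed the test. Casp8, the initiator of the death receptor route, had 6.19 and 6.43 on the Ad-GFP arrays and 5.92 and 6.13 on the Ad-atrogin-1 arrays (-0.29, SE 0.15, limma adjusted p = 0.482). Its other probe set had 5.46 and 5.83 against 5.08 and 5.00, a difference of -0.61 (SE 0.16), which was 1 of the 7 member probe sets lower at an unadjusted p under 0.05 and had an adjusted p of 0.264 in limma. Neither probe set had overlapping groups.

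Casp2, an initiator tied to DNA damage and to abnormal cell division, had 7.55 and 7.33 with Ad-GFP and 7.28 and 6.99 with Ad-atrogin-1, without overlap (-0.30, SE 0.16). Casp9, the caspase of the apoptosome, had 6.91 and 6.84 against 6.86 and 6.71, which overlapped (-0.09, SE 0.12). Its other probe sets lay at 0.14 and at -0.06, the latter with signals of 3.46 to 3.66, under the lower quartile of every array. Casp6, which cuts lamins and was the only executioner caspase among the members, had 6.86 and 6.79 against 6.78 and 6.94 and differed by 0.03 (SE 0.12).

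Casp4 had the largest difference of all members. It encodes an inflammatory caspase that binds bacterial lipopolysaccharide and opens the cell membrane through gasdermin D. Its log2 signals were 7.23 and 8.17 with Ad-GFP and 8.39 and 8.77 with Ad-atrogin-1. The Ad-atrogin-1 arrays were above both controls, by 0.88 or 1.84-fold in the mean (SE 0.32, 95% interval 0.08 to 1.68, limma adjusted p = 0.335). The first control array was 0.94 below the second, a gap that 114 of all genes (0.802%) reached, and without it the difference was 0.41. Leaving out the second control array instead gave 1.35. Casp1 and Casp12 lie on either side of Casp4 in the RefSeq order of protein-coding genes. Casp1, which matures interleukin-1 beta, had 4.38 and 4.88 against 4.67 and 4.48 (-0.05, SE 0.19), and Casp12, a caspase linked to the ER, had 6.74 and 7.43 against 6.88 and 6.97 (-0.17, SE 0.24). Both overlapped between the groups, and in all 3 genes Ad-GFP replicate 2 was above replicate 1 by 0.5 or more.

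**Figure D3:**
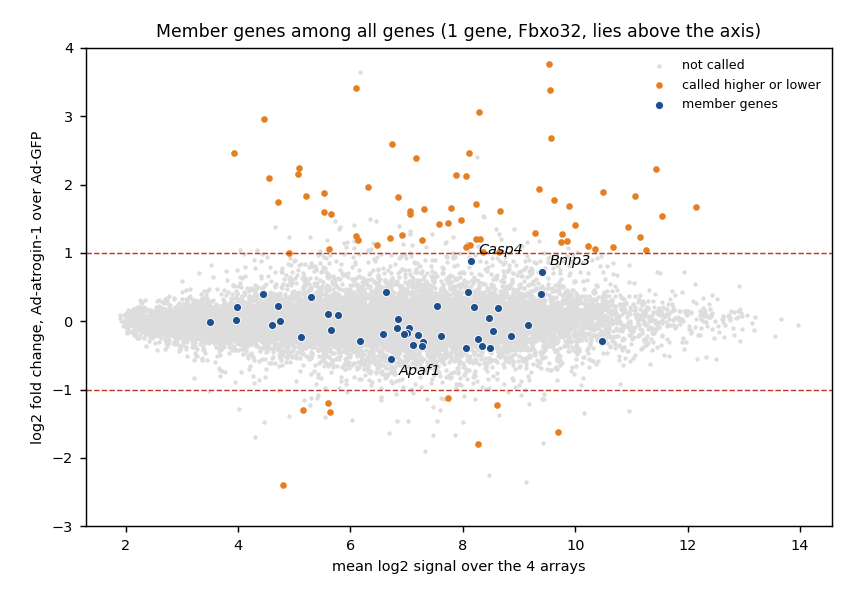
Log2 fold change of Ad-atrogin-1 over Ad-GFP (y axis) against the mean log2 signal over the 4 arrays (x axis) for all genes, with the 42 members in blue and the genes called by limma in orange. Dashed lines mark 2-fold. All members lie between the dashed lines, with Casp4 and Bnip3 highest and Apaf1 lowest.

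The adaptors of the death receptors, which decide whether caspase-8 is activated, differed in opposite directions without passing the test. Fadd, which recruits caspase-8, had 7.41 and 7.15 with Ad-GFP and 6.94 and 6.93 with Ad-atrogin-1, a difference of -0.35 (SE 0.13, limma adjusted p = 0.360) without overlap. Cflar encodes c-FLIP, which competes with caspase-8 for Fadd, and had 6.23 and 6.61 with Ad-GFP and 7.02 and 6.68 with Ad-atrogin-1. The Cflar groups did not overlap (0.43, SE 0.19, limma adjusted p = 0.411), but its second probe set differed by -0.02. Cflar and Casp8 are neighbours in the RefSeq gene order.

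Among the IAPs, 2 of 5 were higher and 3 lower in mean, with a median of -0.23, and none passed the test. Birc2 (cIAP1), a ubiquitin ligase of receptor signaling, had 8.37 and 8.67 with Ad-GFP and 8.25 and 8.06 with Ad-atrogin-1, a difference of -0.37 (SE 0.15, limma adjusted p = 0.394) without overlap. Its neighbour and close relative Birc3 (cIAP2), a target of NF-kappa B, had 7.10 and 7.83 against 7.30 and 6.89. The Birc3 groups overlapped (-0.37, SE 0.27), and without Ad-GFP replicate 2 the difference was 0.00 (0.0002).

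Birc5 (survivin), better known for its part in cell division, had 5.02 and 5.21 with Ad-GFP and 5.41 and 5.52 with Ad-atrogin-1, without overlap (0.35, SE 0.13, limma adjusted p = 0.335). Xiap, the IAP that blocks caspases directly, had 7.55 and 7.32 against 7.80 and 7.53 and overlapped (0.23, SE 0.15). Birc7 (livin) differed by -0.23 (SE 0.15) with overlapping groups. The IAP genes were thus found on both sides of 0.

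The other 5 members fall in no role above. Bcl2l12 (-0.19) and Casp8ap2 (-0.18), a partner of caspase-8 that is no caspase itself, had both Ad-atrogin-1 arrays below both controls. Bcl2l14 (-0.13), Casp16 (-0.02) and Bcl2l15 (0.20) overlapped. Casp16 was the only member under the lower quartile of signal on every array.

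Several probe sets for a gene gave a further look at the same RNA samples. Of 16 members with more than 1 probe set, 10 had all of them below 0 and 3 had all above. In 3 (Bcl2l11, Casp9 and Cflar) they lay on both sides, and the other 26 members had a single probe set. The matching shares over all genes are not given here, so these counts describe the members alone. The widest range within a gene was 0.46, for Cflar. No member probe set was called (0 of 61), where 0.274% of all probe sets were, and the smallest adjusted p was 0.193 in limma. At an unadjusted limma p under 0.05, 4 of the 61 were higher, beside 5.60% of all probe sets, and 7 were lower, beside 5.61%. Both Ad-atrogin-1 arrays lay below both controls on 19 of the 61, beside 22.1% of all probe sets, and above them on 8, beside 18.3%. The probe sets of a gene measure the same RNA, and these shares were not tested against each other.

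**Figure D4:**
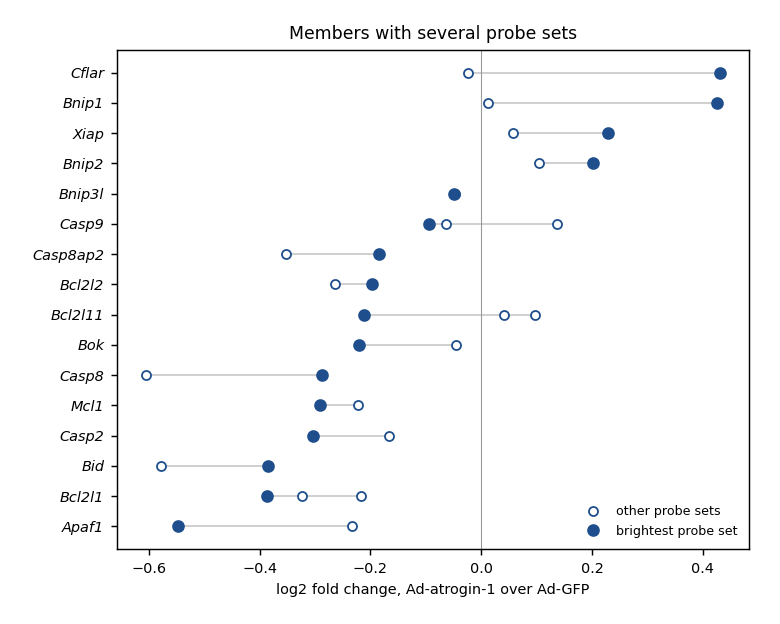
Log2 fold change of Ad-atrogin-1 over Ad-GFP (x axis) for every probe set of the 16 members that have several, with the brightest filled and a line joining those of a gene. All marks of Apaf1, Bcl2l1, Bid and Casp8 lie left of 0, while the line of Cflar runs from -0.02 to 0.43.

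The spread between replicates was part of what limited these comparisons. The Ad-GFP replicates differed by 0.5 or more in 6 of 42 members (14.3%), 5 of them with replicate 2 higher, beside 6.92% of all genes. The Ad-atrogin-1 replicates did so in 3 members (7.14%), each with replicate 1 higher, beside 6.63% of all genes.

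Genes that feed the same machinery were compared from lists of their own, and no gene of the 4 lists was called. Of 14 measured genes of p53 and its apoptosis targets, 10 were higher and 4 lower, with a median of 0.14. At an unadjusted limma p under 0.05, 3 of the 14 were higher, beside 6.83% of all genes, and none was lower. Aen, a nuclease induced by p53, had 9.03 and 8.68 with Ad-GFP and 9.37 and 9.84 with Ad-atrogin-1 (0.75, SE 0.21, limma adjusted p = 0.229), and Ei24, another p53 target, had 8.28 and 7.95 against 8.78 and 8.56 (0.55, SE 0.16, limma adjusted p = 0.249). Neither overlapped between the groups.

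Of 13 measured death receptors and their signaling genes, 5 were higher and 8 lower, with a median of -0.06. At an unadjusted limma p under 0.05, 3 of the 13 were lower, beside 6.52% of all genes, and none was higher. Fas, the receptor that recruits Fadd, had 8.47 and 8.31 with Ad-GFP and 8.02 and 7.68 with Ad-atrogin-1 (-0.55, SE 0.16, limma adjusted p = 0.244). Its other probe sets were dim, with signals between 3.29 and 4.40, and differed by -0.06 and 0.02 with overlapping groups. Ripk3, a kinase of necroptosis, had 7.61 and 8.17 against 7.31 and 7.33 (-0.57, SE 0.20, limma adjusted p = 0.322), and without Ad-GFP replicate 2 the difference was -0.29. At these probe sets neither gene overlapped between the groups.

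The 17 mitochondrial and nuclear executors were split between 9 higher and 8 lower, with a median of 0.01 and no unadjusted limma p under 0.05. The largest differences were those of Endog (0.29, SE 0.15), a mitochondrial nuclease with 5.73 and 5.85 against 6.25 and 5.92, and Aifm2 (-0.27, SE 0.20), a redox enzyme with 5.30 and 5.81 against 5.40 and 5.17. Without Ad-GFP replicate 2 the difference of Aifm2 was -0.02, and without Ad-atrogin-1 replicate 1 that of Endog was 0.13.

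Of 13 measured genes that link ER stress to apoptosis, 7 were higher and 6 lower, with a median of 0.12. Ddit3 (CHOP), a transcription factor of the ER stress response that acts on BCL2 family genes, stood apart in this list. Its log2 signals were 8.55 and 8.77 with Ad-GFP and 9.58 and 9.65 with Ad-atrogin-1, without overlap. The difference was 0.96 or 1.94-fold (SE 0.13) with a limma adjusted p of 0.0570, so that it missed the threshold for p and came just under 2-fold. Trib3, a target of Ddit3, had 8.81 and 9.29 against 9.33 and 9.52 (0.38, SE 0.19, limma adjusted p = 0.477), and its difference was 0.13 without Ad-GFP replicate 1 and 0.62 without replicate 2. Bbc3 and Bcl2l11, both known as targets of Ddit3, had the differences of -0.15 and -0.21 given above. The other, dimmer probe sets of Bcl2l11 differed by 0.04 and 0.10. A link of Ddit3 to any member was not tested.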

How the data were processed

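The log2 signals were made by the authors by RMA (robust multi-array average) with GeneSpring GX before they were deposited, and they were used unchanged for all 4 arrays. Control probe sets (57) were left out. Of the 31042 kept, whatever their signal, 20826 were paired with 1 gene of the platform annotation, 436 with several and 9780 with none. Ad-atrogin-1 was set against Ad-GFP in R 4.3.3 by lmFit and eBayes of limma 3.58.1, fitted over all probe sets, two-sided, without a block (2 residual and 3.65 prior degrees of freedom). The brightest probe set stood for its gene, with Benjamini-Hochberg adjustment over the 14217 genes. Calls use the thresholds of the methods, and SE is that of the moderated fit.

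The members, the role, pathway and marker lists and the tests were chosen with earlier results of these data known. Values on each array are given for members called, for the 12 members with the largest differences, for the 2 brightest of each role list (all in lists of up to 3), for members whose probe sets differ by 1 or more, and for the 2 largest differences of each pathway list. Members outside that rule are named to account for all of them, and Bcl2a1, Myh6, the second probe sets and the 3 promoters were chosen after values were seen. Alternatives were other scalings, a filter on signal, other priors, an equal-variance t-test and a replicate block. Averaged probe sets for each gene, other thresholds and leaving out each array were further ones. For the arrays the methods state only that 2 means were compared, and they do not name the t-test. The alternatives for probe sets and pathway genes were added after seeing the data. The fit was tested on simulated data. Figures were drawn with matplotlib 3.10.9.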

Additional observations from a re-analysis of the deposited data

How the results depend on the processing

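Of the members, no gene was called under any of the 15 alternatives and no probe set under any of the 14 run for probe sets, with the smallest adjusted p of a member gene between 0.146 and 0.506. The median difference of the members stayed below 0, from -0.15 among the upper 60% of probe sets (35 members, all genes 0.01) to -0.02 without Ad-GFP replicate 2. The count of all genes called, 73, was 0 by the equal-variance t-test (1339 at an unadjusted p under 0.05) and 165 with unadjusted p in place of adjusted p. It was 98 with arrays centred on their medians (80 higher, 18 lower) and 94 after a further quantile normalization (74 higher, 20 lower), against 65 higher and 8 lower. With the replicate block, 1 of all genes and 0 members were called. The deviations of arrays with the same number correlated at 0.04 over all probe sets and at 0.06 over the members, so the numbers were not taken as pairs. Leaving out single arrays turned the sign of Birc3 (-0.73 to 0.000225), Bnip3l (-0.12 to 0.0259), Casp1 (-0.30 to 0.20), Casp12 (-0.51 to 0.18), Casp6 (-0.0482 to 0.114) and Htra2 (-0.0176 to 0.124). The other 21 named members and the 8 pathway genes kept their sign in every alternative that held them. Bmf and Casp1 fell below the filter on signal and were not in that alternative. Without 1 array the difference moved by over 1.5 times for 20 of the 27 named members (all but Apaf1, Bak1, Bcl2l1, Birc5, Bmf, Bnip1 and Diablo) and for 4 of the 8 pathway genes (Aifm2, Endog, Ripk3 and Trib3). With probe sets averaged, Fas differed by -0.20 (limma adjusted p = 0.715). Ddit3 had an adjusted p under 0.05 in 3 of 12 alternatives. The lowest was 0.0474 by limma with arrays centred on their medians, and the highest was 0.463 by the equal-variance t-test. The cause of these shifts was not tested. A signal near the lower quartile limits what can be seen of Casp16, Bcl2l10 and Bcl2l15.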
